A study of Mus musculus with 30 samples.

Results

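The semaphorins, plexins and neuropilins are a family of guidance ligands and their receptors, and their RNA was followed over the 9 groups of an RNA-seq series on the long noncoding RNA CASC15 in cultured mouse aortic smooth muscle cells. The members were all genes whose mouse symbol belongs to semaphorin classes 3 to 7, to the plexins or to the neuropilins, which gave 31 of the 78334 gene identifiers in the table: 20 semaphorins, 9 plexins and 2 neuropilins. The family was chosen by a measured value, the lower level of Sema3d in cells that overexpressed CASC15. Values of that comparison are therefore given as a description: no p-value is printed for it, and nothing is read from how many members pass a threshold in it. A filter on low counts kept 28 members in each sequencing run. Sema5b, with 3 counts over all 30 libraries, and Sema7a passed it in neither run, Sema4a (242 counts in all) passed in run 3 only, and Sema3g (141 counts in all) in run 2 only.

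Semaphorins are secreted or membrane-bound proteins that steer growing axons, vessels and migrating cells, mostly as repellents. Plexins are their signalling receptors. They act on small GTPases inside the cell and so change adhesion and the cytoskeleton. Secreted class 3 semaphorins mostly need a neuropilin as the binding partner of an A-type plexin, whereas Sema3e can bind plexin D1 directly and the membrane-bound classes bind plexins themselves. Neuropilins also bind vascular endothelial growth factors, and in the vessel wall the family is known for patterning vessels and for the outflow tract of the heart.

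The labels describe aortic smooth muscle cells that were kept without serum for 48 h and transfected for at least 24 h. In run 2 no agent was added, and 2 libraries came from cells with a control GapmeR (an antisense oligonucleotide that recruits RNase H), 2 from cells labelled knockdown of total CASC15, 3 with a control plasmid and 3 with a plasmid for overexpression of total CASC15. Run 3 held 4 libraries in each of 5 groups: control GapmeR alone, with angiotensin II (10 ng/ml) or with PDGF-BB (10 to 30 ng/ml), each added for 24 h, and knockdown of long CASC15 without treatment or with angiotensin II. All cells of a knockdown comparison, controls included, carried a GapmeR, and all cells of the overexpression comparison carried a plasmid. The growth protocol names mouse and rat cells and gives no strain, sex or age. The labels tag each replicate with a batch, P16 to P19, and do not say whether batches were separate animals or cultures, so p-values measure the spread between these libraries, which may be technical.

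Libraries held 18007184 to 21881948 counts in run 2 and 15771489 to 30362053 in run 3. Levels are CPM, the usual counts scaled to library depth, here with TMM factors, and libraries are listed in the order P16, P17, P18, P19, with P17 first in run 2. The P19 library had the lowest mean rank correlation with its group in 7 of the 7 groups that held one. Counts of called members are therefore also given without that batch, and results of single members only where stated. The gene read as mouse Casc15, 2610307P16Rik, averaged 716 CPM in overexpression against 6.42 CPM with control plasmid, and 2.87 against 5.52 CPM in long knockdown. In the libraries labelled total knockdown it was not lower, at 9.01 against 7.02 CPM, so those libraries are named by their label throughout. The 8 smooth muscle markers summed to 690 to 1016 CPM per group, mostly Cald1 and Acta2, while Cnn1 stayed at or below 0.162 CPM and Tagln at or below 3.25 CPM. The fibroblast markers Col1a1 and Dcn averaged 1379 to 3016 and 664 to 1897 CPM per group, Pi16 6.44 to 66.4 and Pdgfra 3.10 to 47.4 CPM. Lum stayed at or below 3.83 CPM and Dpt at or below 0.487 CPM. The endothelial genes Cdh5, Tie1 and Emcn were at or near 0 and Tek at or below 0.439 CPM. Vwf reached 4.82, Egfl7 3.32 and Pecam1 2.64 CPM. In such bulk RNA, fewer cells of a type and less RNA per cell cannot be told apart.

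Per kb of the longest transcript, the most abundant members were a receptor and a secreted ligand. For levels between genes, CPM was divided by the length of each gene's longest annotated transcript in kb, in the untreated antisense controls of run 3 (mean ± SD, n = 4). Plxnb2, the receptor of class 4 semaphorins, stood at 111 ± 3.76 CPM per kb. Sema3c, a secreted ligand needed for the cardiac outflow tract, stood at 100.3 ± 6.68, and Nrp1, the co-receptor of Sema3a and of VEGF, at 53.4 ± 7.07. Plxnb2 and Sema3c did not differ beyond the sum of their SDs, and both stood above Nrp1 by more than that. Sema3f followed at 42.4 ± 5.33, within the summed SDs of Nrp1. Plxna1 at 28.3 ± 1.88, Sema3a at 26.7 ± 3.04 and Sema4g at 21.3 ± 4.73 came next, below Sema3f and each within the summed SDs of its neighbour among these 3. Below 10 CPM per kb, Plxnb1 (9.88), Sema4c (8.44), Plxnd1 (7.49), Sema4b (7.23), Sema3d (6.14 ± 0.245) and Sema6d (5.67 ± 1.03) followed, each within the summed SDs of the next. Sema5a stood at 1.49 ± 0.272 and Nrp2, the co-receptor of Sema3f, at 1.25 ± 0.169. The least abundant were Sema4a (0.182), Plxnc1 (0.149), Sema7a (0.0905), Sema3g (0.0158) and Sema5b, at 0. With the median transcript length in place of the longest, Nrp1 moved from rank 3 to rank 8 and Plxna1 from rank 5 to rank 2, ahead of Sema3c at rank 3, so the order below Plxnb2 depends on the length used.

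**Figure D1:**
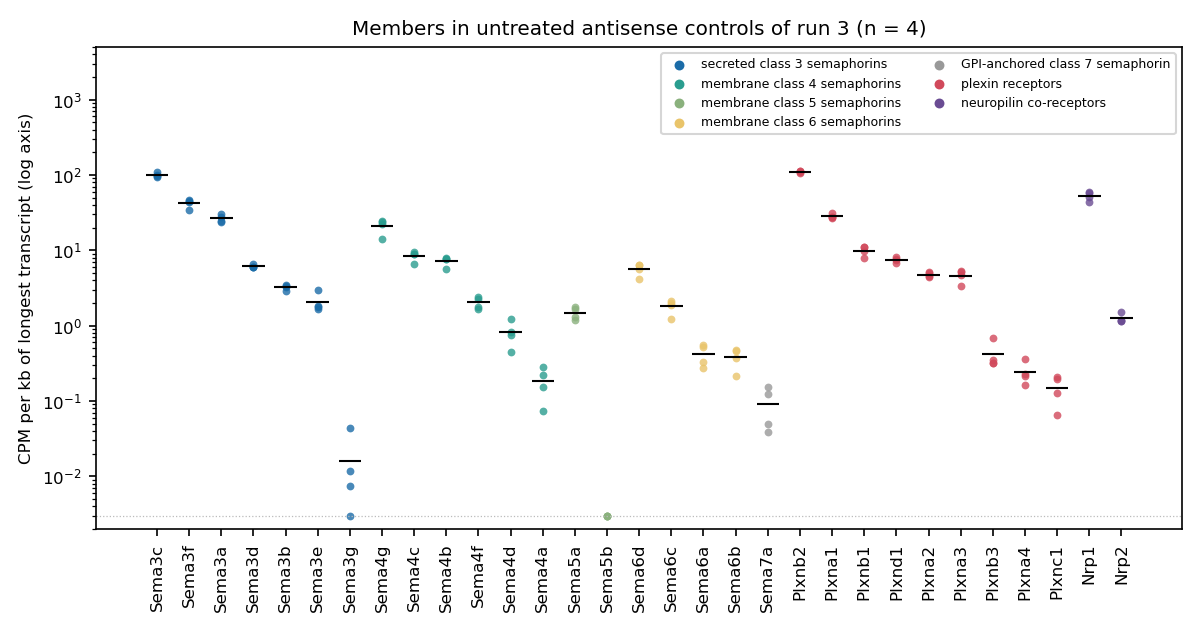
Level per kb of longest transcript (log axis) of the 31 members in the untreated antisense controls of run 3, 1 point per library (n = 4) and a bar at the mean, coloured by role. Plxnb2 and Sema3c lead at 111 and 100.3 CPM per kb, and libraries at 0 are drawn on the dotted line at the bottom.

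Promoters are shown for the 4 members the comparisons below turn on: Sema3d, the ligand that marked the family, Sema3e and Sema5a, ligands with large values in several comparisons, and Plxna2, the receptor with the smallest p in knockdown of long CASC15. RefSeq promoters (GRCm38.p6, 250 bases before to 50 after the start) were matched by symbol for 26 of the 31 members. Each sequence is on the plus strand, 5′ to 3′, and capitals mark the motifs found on either strand.
Sema3d: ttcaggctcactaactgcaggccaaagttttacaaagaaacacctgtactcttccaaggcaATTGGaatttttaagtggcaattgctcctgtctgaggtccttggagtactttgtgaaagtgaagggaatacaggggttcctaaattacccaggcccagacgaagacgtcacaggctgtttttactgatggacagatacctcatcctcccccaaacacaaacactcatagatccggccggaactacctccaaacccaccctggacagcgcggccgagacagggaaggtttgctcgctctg
Sema3e: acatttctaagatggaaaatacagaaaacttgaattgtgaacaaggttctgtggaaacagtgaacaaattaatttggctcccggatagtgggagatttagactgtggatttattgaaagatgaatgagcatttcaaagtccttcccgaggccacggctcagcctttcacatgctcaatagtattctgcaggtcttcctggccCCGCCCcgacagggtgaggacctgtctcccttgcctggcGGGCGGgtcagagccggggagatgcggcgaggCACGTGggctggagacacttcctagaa
Sema5a: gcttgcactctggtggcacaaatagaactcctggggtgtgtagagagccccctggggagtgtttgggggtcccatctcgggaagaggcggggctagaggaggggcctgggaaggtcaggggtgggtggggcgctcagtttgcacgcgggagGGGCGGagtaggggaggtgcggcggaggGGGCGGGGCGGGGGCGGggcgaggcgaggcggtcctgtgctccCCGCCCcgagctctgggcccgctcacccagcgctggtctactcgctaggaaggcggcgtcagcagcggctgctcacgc
Plxna2: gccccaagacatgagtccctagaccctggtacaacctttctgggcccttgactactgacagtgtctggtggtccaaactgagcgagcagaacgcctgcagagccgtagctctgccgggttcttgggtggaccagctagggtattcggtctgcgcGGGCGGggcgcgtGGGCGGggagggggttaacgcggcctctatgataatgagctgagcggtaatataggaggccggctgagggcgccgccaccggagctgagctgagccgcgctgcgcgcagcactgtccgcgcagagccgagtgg
Sema3d lies at chr5:12382916-12383215, Sema3e at chr5:14025026-14025325, Sema5a at chr15:32244563-32244862 and Plxna2 at chr1:194619579-194619878. Motifs were searched on both strands, and their share was taken over the 32851 promoters in the table. The TATA box (TATAAA) was in 13.6% of them and the CCAAT box (CCAAT) in 37.4%. The GC box (GGGCGG) was in 35.7%, the E-box (CACGTG) in 7.15% and the AP-1 motif (TGANTCA) in 7.81%. Sema3d held 1 CCAAT match and 8 CG dinucleotides, near the median of 7 over all promoters. Sema3e held 2 GGGCGG matches, 1 CACGTG match and 11 CG dinucleotides. Sema5a held 5 GGGCGG matches, of which neighbouring ones share a base or abut, and 23 CG dinucleotides, and Plxna2 held 2 and 25, both above the upper quartile of 20. A match is a description of these letters only. By RefSeq gene order, Sema3d and Sema3a are neighbours on chromosome 5 with no coding gene between them, 3 coding genes separate Sema3a from Sema3e, and 15 separate Sema3e from Sema3c. On chromosome 9, 3 coding genes lie between Sema3b and Sema3f.

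Sema3d, a secreted repellent known in the heart and its vessels (ENSMUSG00000040254.12), was low in 3 groups. It stood at 3.44, 4.49 and 3.95 CPM in overexpression against 19.7, 24.7 and 16.6 CPM with control plasmid. It stood at 10.5 and 8.33 CPM in the libraries labelled total knockdown against 18.9 and 22.7 CPM in their controls. In none of these sets did the groups overlap. In run 3 it stood at 37.5, 38.4, 38.05 and 41.0 CPM in untreated controls and at 18.005, 25.4, 25.5 and 13.7 CPM under PDGF-BB, again without overlap. The other groups of run 3 overlapped the untreated range: 34.8, 40.8, 42.2 and 37.7 CPM under angiotensin II, 44.6, 38.6, 38.3 and 44.8 CPM in long knockdown, and 40.0, 38.5, 47.0 and 43.4 CPM in long knockdown under angiotensin II. The log2 fold change was -2.36 (SE 0.20) in overexpression, given with no test. It came to -1.14 in the libraries labelled total knockdown (SE 0.23, Benjamini-Hochberg adjusted p = 0.0405 by the quasi-likelihood test of edgeR). That call was lost without any 1 of the 4 libraries (adjusted p 0.0879 to 0.425) and with a mean CPM minimum of 1 (adjusted p = 0.0567). Under PDGF-BB it fell by 0.91 on the log2 scale (SE 0.14, adjusted p = 2.53e-05). Long knockdown gave 0.10 (SE 0.13, adjusted p = 0.618). Within batches the log2 ratio under PDGF-BB was -1.06, -0.59, -0.58 and -1.58, lower in all 4.

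**Figure D2:**
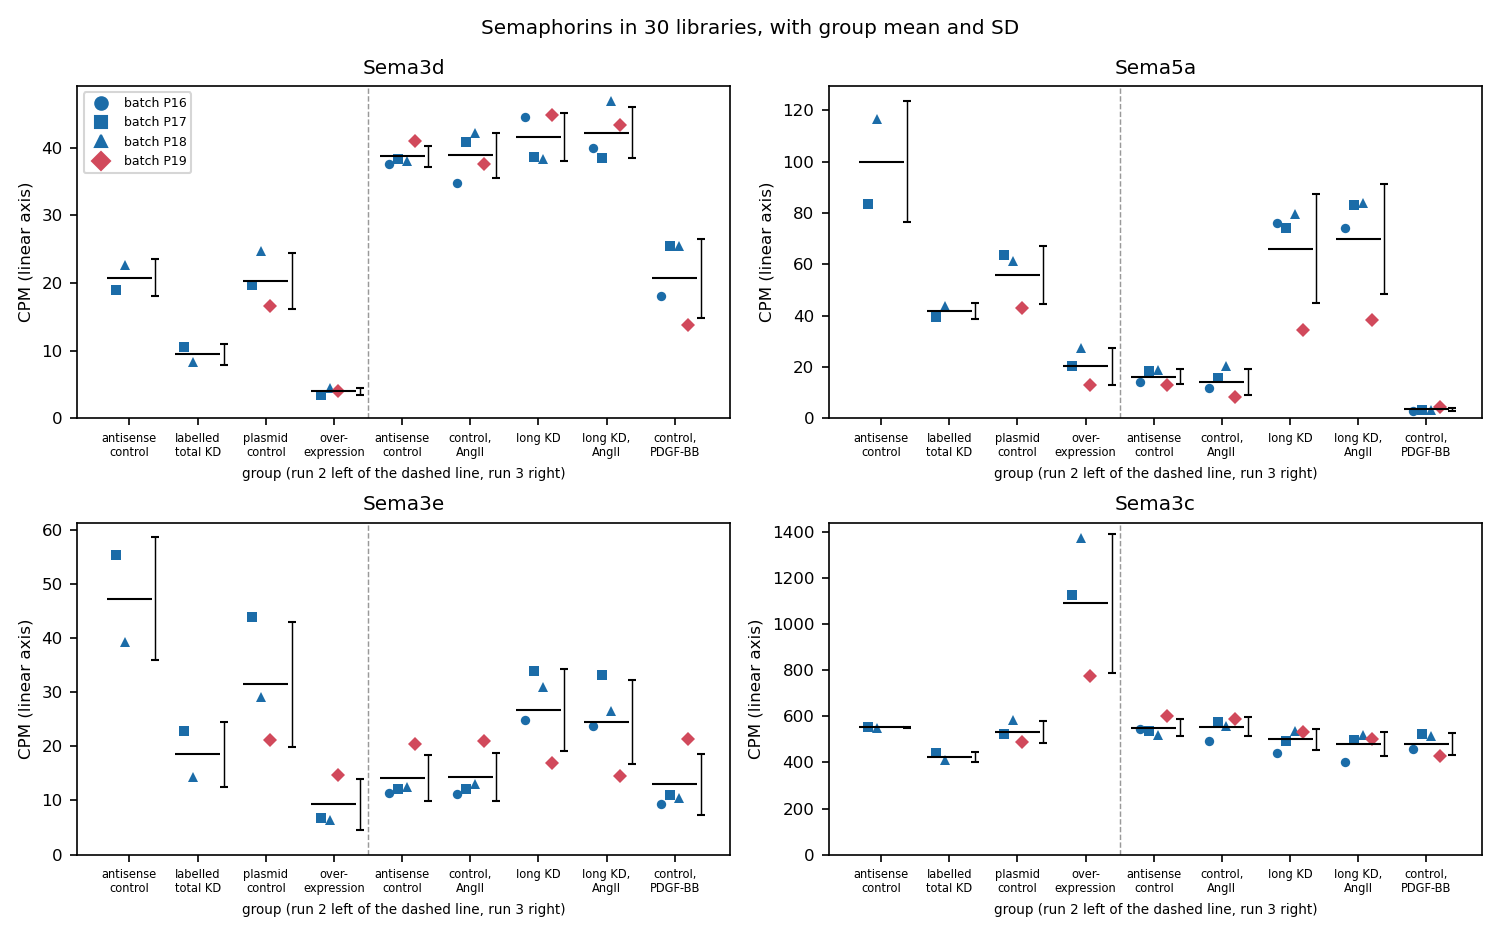
CPM (linear axis) of Sema3d, Sema5a, Sema3e and Sema3c in the 30 libraries by group, run 2 left and run 3 right of the dashed line, with the group mean (line) and SD (bar) and a symbol per batch. Sema3d is lowest in overexpression (3.44 to 4.49 CPM), and Sema5a is highest in run 3 in the 2 long knockdown groups.

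Overexpression of total CASC15 was the comparison that chose the family, and its values describe the members only. Secreted class 3 ligands spanned both ends of the range. Sema3c stood at 1127, 1372 and 773 CPM against 523, 584 and 489 CPM with control plasmid, a log2 fold change of 1.04 (SE 0.19). Sema3c is the ligand with the highest level per kb, and its lowest overexpression library was P19. Sema3e, a ligand of plexin D1, stood at 6.74, 6.46 and 14.7 CPM against 44.0, 29.1 and 21.3 CPM (log2 fold change -1.76, SE 0.39). Sema3a, the repellent that acts through Nrp1, stood at 177, 186 and 163 CPM against 226, 247 and 260 CPM (log2 fold change -0.48, SE 0.10). Neither of these sets overlapped. Sema5a, a membrane ligand with thrombospondin repeats, stood at 20.4, 27.4 and 12.7 CPM against 63.8, 61.1 and 42.9 CPM (log2 fold change -1.47, SE 0.27). Sema6c (-1.28), Sema3b (-1.21), Plxnb1 (-1.07) and Sema4g (-0.92) were further negative values, and Sema6a (0.73), Plxnc1 (0.60), Nrp2 (0.56) and Sema4b (0.53) further positive ones. Of the receptors with the highest levels per kb, Plxnb2 had a log2 fold change of 0.29 (SE 0.14) and Nrp1 of -0.17 (SE 0.20). The median over the 28 tested members was -0.14, against 0.00 over all genes. In the same libraries the median log2 fold change was -0.84 over 7 smooth muscle markers, -0.24 over 6 fibroblast markers and -1.02 over 2 glial or neural markers. It was 0.10 over 3 endothelial markers and 0.81 over 2 leukocyte markers, which had -1.39 and 3.01. In this order, the 5 lists summed to 802 against 905 CPM, 3364 against 3217.5 CPM and 9.5 against 15.8 CPM with control plasmid, then 3.60 against 4.04 CPM and 0.650 against 0.905 CPM. The part of these markers in the members' values was not tested. For the record only, 4 of 28 members were past the threshold used elsewhere, an adjusted p under 0.05 (Sema3d, Sema5a and Sema3a lower, Sema3c higher), where 1.65% of all 15350 genes were, 1.09% higher and 0.554% lower. With the batch as a block it was 16 members against 17.7% of all genes, and without P19 8 members against 5.57%. These counts include Sema3d, whose value chose the family, and are no test of the members.

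In the libraries labelled total CASC15 knockdown, 2 secreted ligands fell, and Sema3g had more counts than in any other library of run 2. Beside Sema3d, Sema3a fell from 232 and 246 CPM to 148 and 160 CPM (log2 fold change -0.64, SE 0.12, adjusted p = 0.0298, edgeR). Sema3g, a ligand of Nrp2 known from endothelium, had 2 and 2 counts in the control libraries and 31 and 33 counts in the labelled knockdown libraries. Scaled to depth, the ratio of the summed counts was 16.2 (95% exact counting interval 6.01 to 61.1, counting error only). The other libraries of run 2 had at most 7 counts, so Sema3g passed the filter on low counts only through the group where it is high. Its values are therefore a description, and its adjusted p (0.0421, edgeR) is no support for a difference. Past the threshold were 3 of 28 members, Sema3g higher and Sema3d and Sema3a lower, and the count includes Sema3g, which the filter admitted for its high values; over the run, 2.07% of all genes were called, 1.5% higher and 0.56% lower. Leaving out any 1 of the 4 libraries ended all 3 calls (adjusted p up to 0.217 for Sema3a and 0.292 for Sema3g); the lone library left in a group is then assumed to vary like the other groups. With a mean CPM minimum of 1 Sema3g was not tested. With the batch as a block 9 members were called (14.4% of all genes), and without P19, which leaves these 4 libraries in place and changes the shared spread, 6 (6.86% of all genes). The block added 6 calls, among them Sema5a and Nrp2. Sema5a stood at 39.4 and 43.8 CPM against 83.5 and 117 CPM in controls (log2 fold change -1.27, adjusted p = 0.0918, with the block 0.00033). Nrp2 stood at 5.77 and 4.93 CPM against 11.7 and 11.9 CPM (-1.14, adjusted p = 0.0567, with the block 0.0047). Sema3e had a log2 fold change of -1.35 (adjusted p = 0.218). None of the 9 plexins was called without the block, and their log2 fold changes ran from -0.54 to 0.36. With the block 1 of them, Plxna1, was called higher (0.36, adjusted p = 0.0338). The median over the 28 members was -0.30, against 0.01 over all genes.

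Beside Sema3g, markers of myeloid cells were higher in the same libraries. Of the 6 leukocyte markers 2 were tested. Cd68 rose, averaging 15.8 CPM against 0.43 CPM in controls (adjusted p = 0.00576, edgeR). Csf1r averaged 2.89 against 0.141 CPM, and with at most 7 counts in the other libraries of run 2 it too passed the filter only through these libraries. The 6 markers summed to 18.8 CPM there and to 0.64 to 1.46 CPM in the other 8 groups. Ptprc and Cd3e were at 0 in these libraries and Adgre1 at 0.0224 CPM. The endothelial markers summed to 9.28 CPM there against 3.75 CPM in controls, with 3 of 7 tested, all 3 higher in both libraries than in either control. None was called without the block, and 2 were called higher with it, Pecam1 (adjusted p = 0.0261) and Vwf (adjusted p = 0.0163). Of 7 tested smooth muscle markers 1, Myh11, rose. Of 6 tested fibroblast markers none was called without the block and 2 were called lower with it, with a median log2 fold change of -0.63, and their sum was 2704 CPM against 2964 CPM in controls. The part of these genes in the members' values was not tested.

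Knockdown of long CASC15 in untreated cells raised 3 ligands and 2 receptors and lowered 3 ligands and 1 receptor. In total 9 of 28 members were called, 5 higher and 4 lower. Over all 15103 genes 25% were called, 12.3% higher and 12.8% lower. With the batch as a block the counts were 18 of 28 members and 40.6% of all genes, and without P19 19 of 28 members and 40% of all genes. The largest value was that of Sema5a (ENSMUSG00000022231.11). It stood at 76.1, 74.1, 79.8 and 34.3 CPM against 14.2, 18.2, 18.9 and 13.002 CPM in controls. Every knockdown library was above every control, and the P19 library was well below the other 3. On the log2 scale it rose by 2.04 (SE 0.30, adjusted p = 7.47e-05), with 2.42, 2.02, 2.07 and 1.40 within the batches. Plxna2, an A-type plexin that pairs with neuropilins and binds class 6 semaphorins, stood at 105, 100.0, 97.3 and 82.6 CPM against 55.5, 56.3, 48.5 and 50.6 CPM. These groups did not overlap (log2 fold change 0.87, SE 0.08, adjusted p = 3.42e-07). Plxna2 (ENSMUSG00000026640.13) and Sema3e (ENSMUSG00000063531.8) were singled out after their values were seen.

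Sema3a rose from 166, 145, 142 and 180.0 CPM to 206, 218, 201 and 208 CPM, without overlap (log2 fold change 0.39, SE 0.07, adjusted p = 0.000309, edgeR). Sema3e stood at 24.9, 34.0, 31.0 and 16.98 CPM against 11.3, 12.1, 12.5 and 20.5 CPM. It was higher in 3 batches, with log2 ratios of 1.14, 1.49 and 1.31, and lower in P19, at -0.27. Its call (log2 fold change 0.92, adjusted p = 0.0366) was lost without any 1 of the P16, P17 and P18 libraries of either group, with adjusted p up to 0.113, and with no filter on low counts (0.117). Without P19 its log2 fold change was 1.31 with adjusted p = 2.8e-09. Plxna3, another A-type plexin, had a log2 fold change of 0.49 (adjusted p = 0.039) and lost its call without the control libraries of P16 or P19 or the knockdown libraries of P16, P17 or P18 (adjusted p up to 0.136) and with no filter (0.118).

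Sema6b, a membrane ligand of A-type plexins, stood at 0.374, 0.278, 0.544 and 0.796 CPM against 1.39, 1.73, 1.80 and 0.813 CPM. The groups did not overlap, but by little: the P19 libraries of both groups were nearly equal (log2 fold change -1.5, SE 0.40, adjusted p = 0.00903, edgeR). Sema4a, a membrane ligand best known from immune cells, had 5, 0, 4 and 4 counts against 17, 9, 18 and 7 counts, or 0.234, 0, 0.217 and 0.212 CPM against 0.714, 0.487, 0.898 and 0.237 CPM (log2 fold change -1.74, adjusted p = 0.0357). Its call was lost without the control libraries of P16 or P18 or the knockdown libraries of P16, P17 or P18 (adjusted p up to 0.103) and with no filter (0.0681). Sema6d, a membrane ligand of plexin A1 in the developing heart, stood at 24.1, 24.2, 30.7 and 21.3 CPM against 41.2, 36.4, 41.4 and 27.2 CPM (log2 fold change -0.54, adjusted p = 0.02). Plxnd1, the vascular receptor of Sema3e, had a log2 fold change of -0.29 (adjusted p = 0.0112). Sema6d lost its call without the control library of P16 or the knockdown library of P17 (adjusted p up to 0.0591), and Plxnd1 in a fit of only the groups compared (0.0537).

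The 18 members called with the block were 9 in each direction. Among the calls the block added, Nrp1 and Plxna4 were higher. Nrp1 stood at 243, 231, 225 and 183 CPM against 210.5, 218, 188 and 161 CPM (adjusted p = 0.243 without and 0.00461 with the block, edgeR). Plxna4 had a log2 fold change of 0.93 (adjusted p = 0.108 without and 0.00602 with it). Other added calls were lower, among them Sema3f (log2 fold change -0.15, adjusted p = 0.39 without and 0.0357 with it). Without the block the 2 members with the highest levels per kb were not called: Sema3c had a log2 fold change of -0.14 (adjusted p = 0.269) and Plxnb2 of -0.15 (0.169). With the block Plxnb2 was called lower (adjusted p = 0.0112). The median over the members was -0.06, against 0.02 over all genes. In the same comparison 4 of the 5 tested fibroblast markers were called, 2 in each direction, 3 of 7 tested smooth muscle markers, 2 higher and 1 lower, 2 of 3 tested endothelial markers and 2 of 2 tested glial or neural markers, both 1 in each direction; their part in the members' values was not tested. The fibroblast markers summed to 3340 CPM in knockdown and 3802 CPM in controls, the smooth muscle markers to 898 and 999.35 CPM and the glial or neural markers to 24.7 and 36.9 CPM.

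Under angiotensin II the same knockdown called 5 of 28 members, 3 higher and 2 lower. Over all genes 26.7% were called, 13.4% higher and 13.3% lower. Sema5a stood at 74.1, 83.3, 84.0 and 38.3 CPM against 11.8, 15.8, 20.3 and 8.39 CPM in the controls that received it (2.31 on the log2 scale, SE 0.30, adjusted p = 2.64e-05, edgeR). Plxna2 stood at 109, 104, 98.4 and 83.6 CPM against 52.9, 52.5, 55.3 and 56.5 CPM (0.87, adjusted p = 3.77e-07), and Sema3a had a log2 fold change of 0.41 (adjusted p = 0.000226). Sema6b stood at 0.308, 0.324, 0.299 and 0.747 CPM against 2.09, 1.08, 1.81 and 1.23 CPM (-1.86, adjusted p = 0.00218). None of these 4 sets overlapped. Plxnd1 (-0.22, adjusted p = 0.0417) lost its call without P19 and without any 1 of 6 of the 8 libraries, with adjusted p up to 0.0894, and without a filter on low counts (0.107). Sema3e (0.77, adjusted p = 0.0739) and Sema4a (-0.69, 0.421) were not called. With the block 14 members were called (41.3% of all genes), and without P19 also 14 (39.9% of all genes). These controls differ from those of the untreated comparison, while both knockdown groups are labelled with the same target. In the same comparison 3 of 5 tested fibroblast markers were called (1 higher, 2 lower), 4 of 7 smooth muscle markers (2 in each direction), 2 of 3 endothelial markers (1 in each direction) and 1 of 2 glial or neural markers (lower). The fibroblast markers summed to 3381 CPM against 3763 CPM in controls and the smooth muscle markers to 901 against 1016 CPM, and their part in the members' values was not tested.

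Angiotensin II itself, the pressor peptide that acts on smooth muscle, called no member and no gene. The share called was 0% of all genes in control cells, 0% in long knockdown cells and 0% for the interaction of knockdown and angiotensin II, by edgeR's quasi-likelihood test. DESeq2 also called 0 members in each. Without the block, 0 of the 28 members had an unadjusted p under 0.05, where 156, 174 and 166 of all 15103 genes had. So few genes of any kind passed that the 0 of 28 says nothing about the members in particular. With the batch as a block the counts over all genes were 262, 324 and 326. They included Plxnb1 in the interaction (log2 fold change 0.22), which was not called after adjustment. Log2 fold changes of members ran from -0.53 (Sema4a, SE 0.53) to 0.36 (Plxna4, SE 0.42) in control cells and from -0.24 (Sema6b) to 0.51 (Sema4a) in knockdown cells. Among members with more RNA, Sema3d had 0.00 (SE 0.14), Plxna2 0.04 (SE 0.09) and Plxnb2 -0.02 (SE 0.08) in control cells. Plxnb1 had -0.11 (SE 0.15), Plxnd1 -0.14 (SE 0.08) and Sema3e 0.01 with a wider error (SE 0.31). The interaction was 0.26 (SE 0.41) for Sema5a and 0.00 (SE 0.12) for Plxna2, and the widest was that of Sema4a at 1.05 (SE 0.84).

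PDGF-BB, the growth factor that drives smooth muscle cells to divide, lowered 8 members and raised 6 in control cells. These 14 of 28 stood beside 43.6% of all genes called, 23.6% higher and 20% lower. With the block 19 members were called (54.5% of all genes), and without P19 also 19 (48.9%). Among the ligands 5 fell and 2 rose. Sema5a went from 14.2, 18.2, 18.9 and 13.002 CPM to 2.86, 3.24, 3.32 and 4.22 CPM, without overlap and in all 4 batches (log2 fold change -2.23, SE 0.34, adjusted p = 5.14e-05, edgeR). Sema6c, a membrane class 6 ligand, went from 10.2, 9.69, 10.97 and 6.26 CPM to 2.92, 3.90, 3.11 and 1.22 CPM, without overlap (-1.73, SE 0.29, adjusted p = 8.22e-05). Among the secreted ligands Sema3d, Sema3b (-0.80, adjusted p = 0.00145) and Sema3f (-0.36, adjusted p = 0.0173) fell and Sema3a rose (0.31, adjusted p = 0.0012). The call of Sema3f was lost without the PDGF-BB library of P18 (adjusted p = 0.0527). Sema4b, a membrane class 4 ligand, rose (0.57, adjusted p = 0.000746). Sema6b, at 3.98, 2.36, 2.32 and 1.63 CPM against 1.39, 1.73, 1.80 and 0.813 CPM, was not called (0.85, adjusted p = 0.0576), but was called higher with the block (adjusted p = 0.0434).

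Receptors split by PDGF-BB. Plxnb2 rose from 738, 707, 691 and 741 CPM to 1048, 971, 937 and 1082 CPM, without overlap (log2 fold change 0.49, SE 0.08, adjusted p = 4.74e-05, edgeR). Nrp2 (0.78, adjusted p = 0.00504), Plxnd1 (0.39, adjusted p = 0.000451) and Plxna2 (0.34, adjusted p = 0.003) rose as well. Plxnb1, the receptor of Sema4d, fell by 0.84 on the log2 scale (adjusted p = 0.000192). Plxnc1, the receptor of Sema7a, had 10, 11, 7 and 2 counts against 22, 28, 29 and 14 counts, or 0.561, 0.565, 0.369 and 0.102 CPM against 0.924, 1.52, 1.45 and 0.474 CPM (log2 fold change -1.42, adjusted p = 0.0184). Plxna4, an A-type plexin known from nerve cells, stood at 0.449, 0.565, 1.42 and 2.29 CPM against 2.10, 2.76, 2.94 and 4.60 CPM (-1.39, adjusted p = 0.02). For both the groups overlapped through P19, and both calls were lost without 1 of several libraries: for Plxnc1 the controls of P17 or P18 or the PDGF-BB library of P19 (adjusted p up to 0.0586), for Plxna4 the control of P19 or the PDGF-BB libraries of P16 or P17 (adjusted p up to 0.0767). Plxna4 also lost its call with no filter on low counts (0.0666). Nrp1 stood at 190.4, 228, 215 and 179 CPM (log2 fold change 0.06, adjusted p = 0.672). The median over the 28 members was -0.27, against -0.02 over all genes. In the same comparison all 5 tested fibroblast markers were called, 2 higher and 3 lower, 3 of 7 smooth muscle markers, 1 higher and 2 lower, 2 of 3 endothelial markers, 1 in each direction, and 1 of 2 glial or neural markers, higher. The fibroblast markers summed to 3750.4 CPM under PDGF-BB and 3802 CPM in controls, the smooth muscle markers to 784 and 999.35 CPM and the glial or neural markers to 53.3 and 36.9 CPM; their part in the members' values was not tested.

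**Figure D3:**
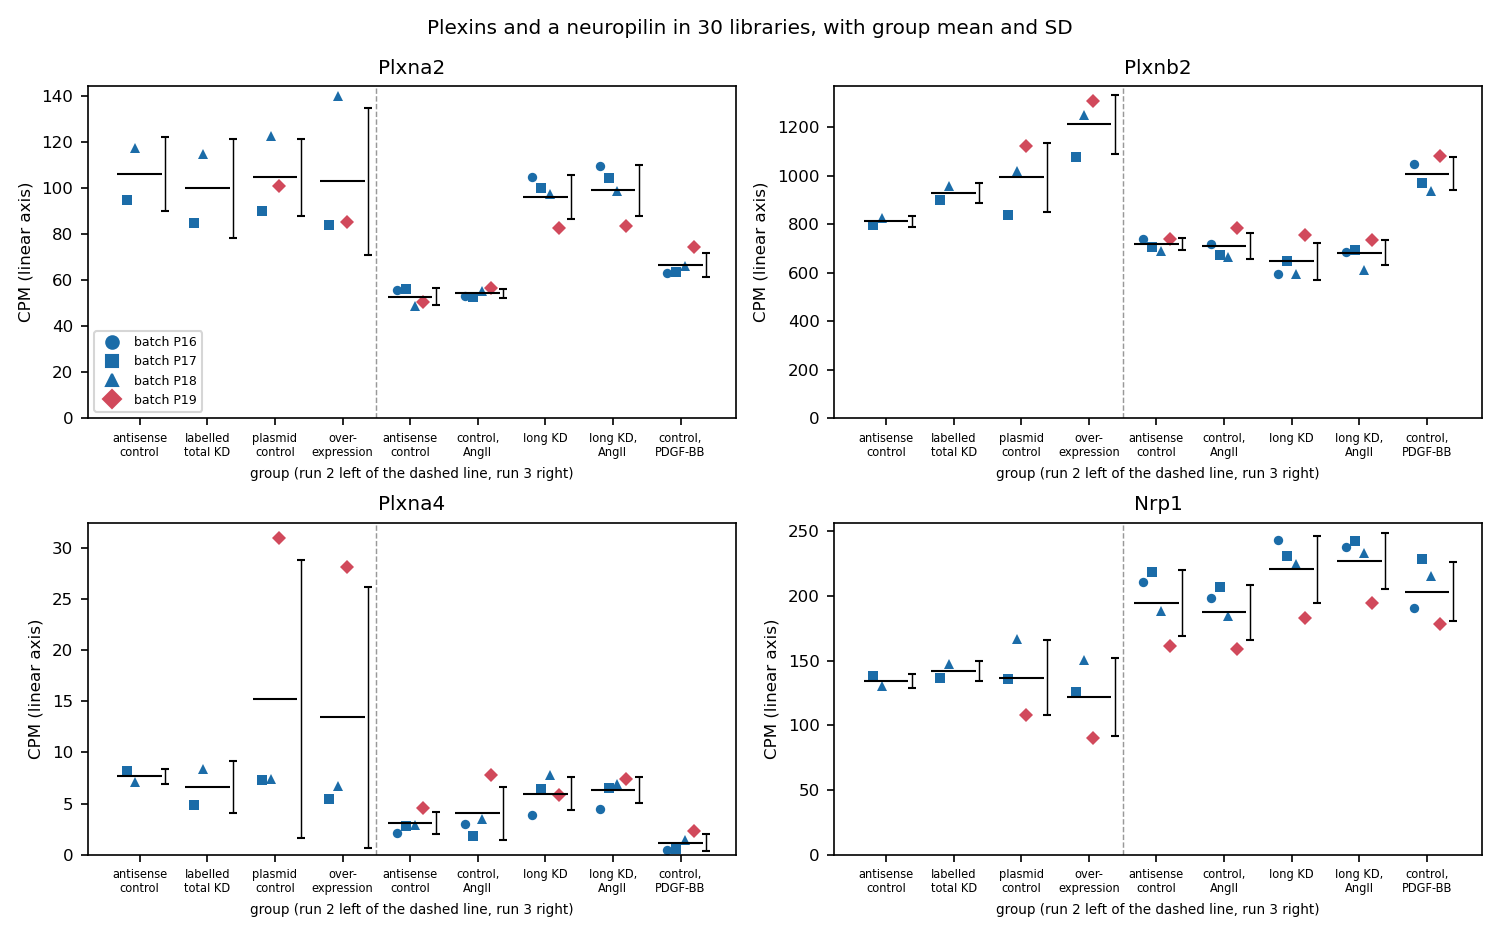
CPM (linear axis) of Plxna2, Plxnb2, Plxna4 and Nrp1 in the 30 libraries by group, run 2 left and run 3 right of the dashed line, with the group mean (line) and SD (bar) and a symbol per batch. Plxna2 stands at 82.6 to 109 CPM in both long knockdown groups and at 48.5 to 56.5 CPM in their controls.

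PDGF-BB and knockdown of long CASC15 were compared with the same untreated control libraries, so their values are only set side by side. Sema5a had -2.23 under PDGF-BB and 2.04 in knockdown, and Plxna4 -1.39 and 0.93. Plxnd1 had 0.39 and -0.29, and Sema6b 0.85 and -1.5. Sema3a (0.31 and 0.39) and Plxna2 (0.34 and 0.87) had the same sign. The libraries labelled total knockdown and those of long knockdown, in different runs and with their own controls, also gave Sema5a opposite signs, at -1.27 and 2.04. Sema3a (-0.64 and 0.39) and Sema3e (-1.35 and 0.92) did likewise. Of these, only Sema3a was called in both comparisons. Sema3c (-0.38 and -0.14) and Sema3f (-0.40 and -0.15) had the same sign in both, and signs were not counted over all members. The difference between these 2 comparisons was not tested.

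**Figure D4:**
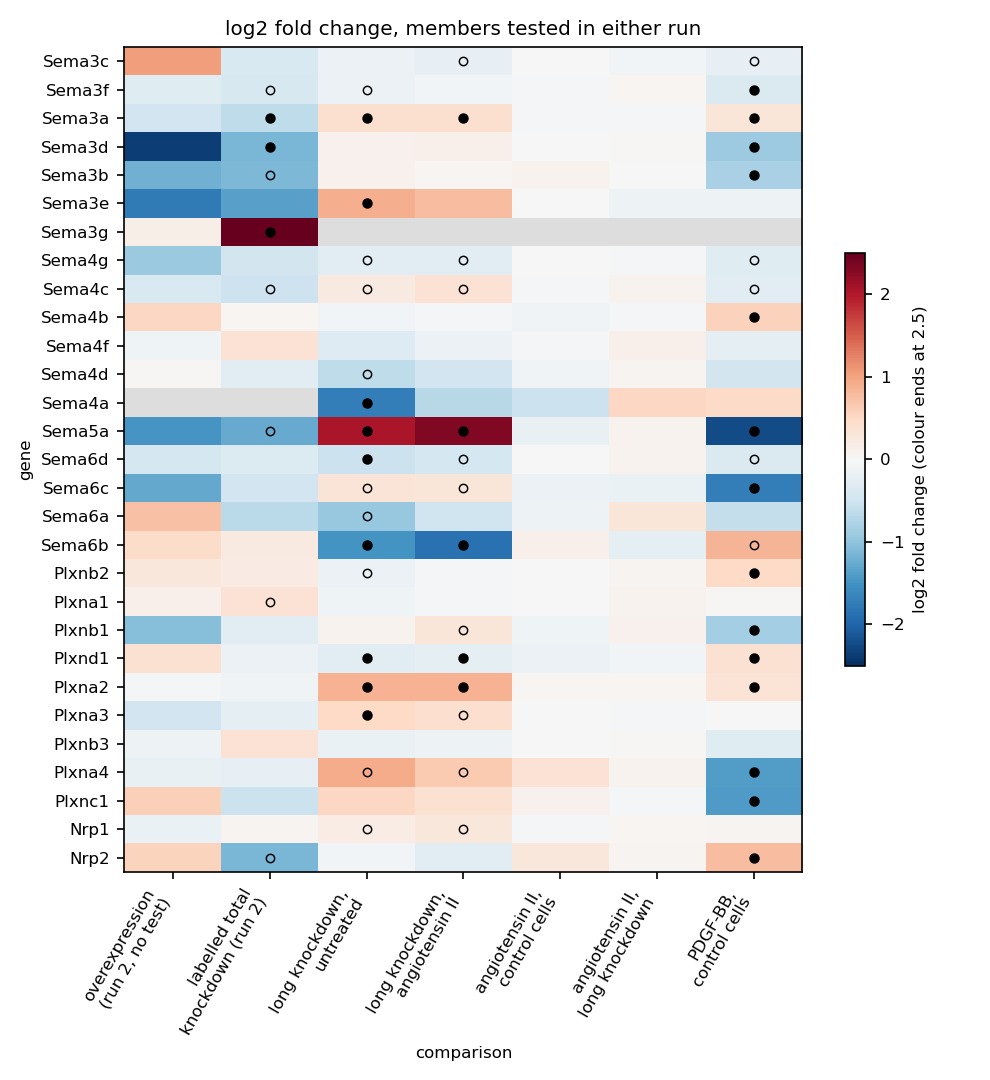
Log2 fold change (colour, ending at 2.5) of the 29 members tested in either run, by comparison; a filled circle marks an adjusted p under 0.05, an open circle one reached only with the batch as a block, and grey means not tested. The overexpression column carries no marks because it chose the family, and the angiotensin II columns have none because no member was called; Sema5a runs from -2.23 to 2.31.

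The starting levels of some members differed between the runs. Untreated antisense controls of batches P17 and P18 were sequenced in both. Sema5a was 4.58 and 6.16 times as high in run 2 as in run 3, Sema3e 4.56 and 3.14 times, and Plxna2 1.68 and 2.42 times. Sema3d was lower in run 2, at 0.492 and 0.597 times, while Sema3c had ratios of 1.03 and 1.06. The difference between runs was not tested, and run cannot be told apart from other differences between these cultures. Sema4g, the class 4 ligand with the highest level per kb, and Sema7a, the single class 7 ligand, complete the leading members of each role. Sema4g stood at 103, 112, 108 and 65.0 CPM in untreated controls of run 3 and at 93.1, 79.0, 87.5 and 52.3 CPM under PDGF-BB (adjusted p = 0.216, with the block 0.00231 and called lower). It stood at 76.0, 90.5, 88.4 and 69.0 CPM in long knockdown (adjusted p = 0.371, with the block 0.0237 and called lower). Sema7a had 3, 3, 10 and 12 counts in untreated controls and 1, 1, 2 and 6 in long knockdown, too few to pass the filter. All 20 libraries of run 3 had 0 counts of Sema5b.

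Of 48 further genes of the pathway (other receptors, VEGF ligands and receptors, effectors inside the cell and proteases that cut semaphorins), 43 were tested in run 2 and 41 in run 3. Long knockdown lowered 15 and raised 4 of 41, where 12.8% of all genes were lower and 12.3% higher. Under angiotensin II it lowered 9 and raised 4 of 41, where 13.3% of all genes were lower and 13.4% higher. PDGF-BB raised 10 and lowered 6 of 41, near the 23.6% higher and 20% lower over all genes. Angiotensin II called none of them (0% of all genes), and in the labelled total knockdown 1 of 43 was past the threshold, Fes, where 2.07% of all genes were called. Among the VEGF receptors, Flt1 averaged 0.59 ± 0.17 CPM in long knockdown, 2.36 ± 0.39 in untreated controls and 4.92 ± 1.4 under PDGF-BB (SD, n = 4). Its log2 fold change was -1.97 in knockdown (adjusted p = 8.49e-05, edgeR) and 1.06 under PDGF-BB (adjusted p = 0.00309). Flt4 had -1.19 in knockdown (adjusted p = 0.000577) and -1.37 in knockdown with angiotensin II (adjusted p = 0.000156). Crmp1, a mediator of Sema3a signalling, had -1.25 in knockdown (adjusted p = 0.0341). Ptk7, a co-receptor, had -1.02 under PDGF-BB (adjusted p = 0.00122). Fes, a kinase known from myeloid cells, averaged 6.63 CPM in the libraries labelled total knockdown against 0.193 CPM in their controls, beside Cd68 and Csf1r above; it had at most 9 counts in the other libraries of run 2 and passed the filter only through these. In overexpression, given as a description, Vegfc averaged 46.2 CPM against 7.36 CPM with control plasmid.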

How the data were processed

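RNA of 30 libraries was measured. The authors deposited a table of expected counts per gene, not scaled to depth; STAR 2.7.11b and RSEM 1.3.1, and the builds GRCm39 and mm10 with no role, are named per the submitters' processing notes. RSEM divides ambiguous reads between genes. A GENCODE mouse annotation gave symbols to 51486 of 78334 identifiers and transcript lengths. Libraries were grouped by the code in their library name, since some titles count the target upward from CASC15.

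Expected counts were rounded. Genes were kept by filterByExpr (minimum count 10, minimum total count 15), scaled with TMM and fitted per run with edgeR's quasi-likelihood model (edgeR 4.0.16, R 4.3.3; robust, all groups of a run together). Two-sided tests were adjusted by Benjamini-Hochberg over all genes, called under 0.05. SE is the absolute log2 fold change over the root of F. The test was run before use on simulated counts drawn with no batch effect, so that check does not cover the pairing of libraries described below. Totals of 15771489 to 30362053 counts set the counting precision; intervals cover counting error only.

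Within a run, same-numbered libraries carry the same P tag, so numbers pair libraries. After removing group means, libraries of 1 batch correlated at 0.499 (others -0.236) for overexpression, 0.253 (-0.253) for the labelled total knockdown, 0.195 (-0.0603) for long knockdown, 0.184 (-0.0559) under angiotensin II and 0.205 (-0.0653) for PDGF-BB. The block was an alternative, beside DESeq2 1.42.0, RLE factors, other filters, only the groups compared, a threshold of 1 on the size of the log2 change and leaving out each library; leaving out batch P19 was added after the data were seen.

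Members, lists and tests were chosen with earlier results of these data known. Values per library are printed for Sema3d, for members called outside overexpression whose log2 change was 1 or more in size, and for the most abundant member of each role; other members shown by library, among them Plxna2, Sema3e, Sema3a and Nrp2, were picked after their values were seen.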

Additional observations from a re-analysis of the deposited data

Results flagged for a closer look

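For 16 members, each of the 80 groups of 4 was examined for a library whose gap to its nearest neighbour took up most of the group's range (Dixon's 95% limit), and 9 groups had one. Of the 9, 5 were P19 libraries. Some of the 16 members, such as Sema3e, were picked after their values were seen, and all share the same libraries. These counts are therefore a description and no test. Sema5a in untreated long knockdown stood at 34.3 CPM in P19, against 74.1 to 79.8 in the others. Sema3e in P19 stood at 20.5 CPM in untreated controls (others 11.3 to 12.5) and at 21.4 CPM under PDGF-BB (others 9.37 to 10.99). In long knockdown under angiotensin II, Sema6b stood at 0.747 CPM in P19 (others 0.299 to 0.324) and Sema7a at 0.399 CPM in P19 (others 0.0499 to 0.0540). In that group the P16 library had 0.0513 CPM of Sema4a (others 0.299 to 0.324) and 1.85 CPM of Plxnc1 (others 1.35 to 1.40). Sema4a stood at 0 CPM in the P17 library of untreated long knockdown (others 0.212 to 0.234) and at 0.976 CPM in P17 under PDGF-BB (others 0.729 to 0.763). The Sema4a, Sema6b and Sema7a values rest on at most 19 counts a library.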

How the results depend on the processing

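In overexpression, whose counts are no test because it chose the family, 4 members were past the threshold, with 8 by DESeq2, 11 with no filter, 1 with only the groups compared, 16 with the replicate block, 8 without P19 and 1 to 8 when 1 library was left out (8 without the P19 control, 1 without either other control or the P17 overexpression library, 2 without the P18 one). In the labelled total knockdown 3 became 5 by DESeq2, 6 with no filter, 1 with a mean CPM minimum of 1, 6 with only the groups compared, 9 with the block and 6 without P19; each fit without 1 library gave 0 (0 to 0). In long knockdown 9 became 3 when the log2 change also had to reach 1 in size, 18 with the block, 19 without P19 and 5 to 11 without 1 library (5 without the P16 control or the P17 knockdown library). Under angiotensin II 5 became 2 at that fold, 8 by DESeq2, 14 with the block, 14 without P19 and 4 to 9 without 1 library (9 without the P19 knockdown library). Under PDGF-BB 14 became 4 at that fold and 13 to 16 without 1 library. Counts under the other alternatives were within 1.5 times the main count, and angiotensin II and the interaction called 0 in every fit run. The log2 fold changes refitted under these alternatives were those of members past the threshold and of Sema3d in long knockdown; none of them changed sign, and other printed values were not run through all of them. Outside overexpression, the refitted members lost 43 calls over the fits without 1 library, among them every call of the labelled total knockdown. They lost 5 calls unfiltered and 1 each with the mean CPM minimum, with only the groups compared and without P19. The block ended none of these calls. Calls in overexpression were not part of this tally. The cause of these differences was not tested. Members with few counts (Sema4a, Sema6b, Sema7a, Plxnc1) limit what depth can show.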
